A study of Homo sapiens with 16 samples.

Results

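The genes described here are 10 regulators of the BCL2 family, 3 pro-survival genes (BCL2, BCL2L1 and MCL1), 2 pore-forming effectors (BAX and BAK1) and 5 BH3-only genes (BID, BIK, BBC3, PMAIP1 and BCL2L11). They were taken by symbol from the 20531 entries of the deposited gene table, and all 10 were found. The mRNA came from LNCaP, an established human prostate cancer cell line that depends on androgen and its receptor. Cells received 40 nM of either a nonsense siRNA (NS) or a pool of siRNAs directed at SLIRP, an RNA-binding protein that acts on the androgen receptor and in mitochondria, and 24 h later were moved to serum-free medium with ethanol vehicle or with dihydrotestosterone (DHT), the main prostatic androgen, at 1 nM for 24 h more. This gives 4 libraries in each of NS-Veh and NS-1nM DHT (nonsense siRNA) and of SLIRP-Veh and SLIRP-1nM DHT (knockdown), drawn from 2 experiments with 2 biological replicates each. All 16 libraries therefore come from transfected cells without serum, and the model is transient knockdown in 1 cell line.

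BCL2 family proteins decide whether the outer mitochondrial membrane stays closed. BAX and BAK1 form the pores that release cytochrome c, the pro-survival proteins hold them in check, and BH3-only proteins respond to stress by occupying the pro-survival proteins or by switching on BAX and BAK1 directly. MCL1 is a short-lived protein that depends on steady synthesis, while BCL2L1 encodes BCL-XL and, by alternative splicing, a shorter pro-death form. The gene-level counts used here do not separate such splice forms.

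Between 436353 and 1689708 estimated counts per library were assigned to genes, and 3 counts, taken as the smallest usable value, correspond to between 1.78 and 7.08 CPM (counts relative to library size, with edgeR's TMM factors). SLIRP, listed under its older symbol C14orf156, lay between 45.1 and 64.0 CPM in the 8 NS libraries. In the 8 SLIRP siRNA libraries it lay between 1.42 and 8.06 CPM, so the libraries matched their siRNA labels. KLK3, which encodes the androgen target PSA, was read for the treatment labels. It lay between 25.9 and 52.8 CPM in NS-Veh and between 247 and 327 CPM in NS-1nM DHT. With SLIRP siRNA it lay between 91.8 and 99.3 CPM in vehicle and between 333 and 403 CPM in DHT. The 8 luminal prostate markers summed to between 3544 and 4010 CPM with NS and between 2742 and 3090 CPM with SLIRP siRNA, and the part of that difference in the results was not tested. The basal markers KRT5 and TP63, the stromal marker DCN and the leukocyte markers PTPRC and CD3E were at 0 counts in every library. Of the 5 stromal genes only DCN was at 0 throughout. COL1A1 had between 4 and 25 counts in a library and COL3A1 between 1 and 10. Of the marker lists for other cell types, 4 basal genes reached at most 2 counts and 5 leukocyte genes at most 6 in a library, and the 5 stromal genes summed to between 12.6 and 26.0 CPM with NS and between 12.7 and 26.3 CPM with SLIRP siRNA.

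To ask how the family responds to loss of SLIRP, the 8 SLIRP siRNA libraries were compared with the 8 NS libraries, vehicle and DHT together. Of the 10 genes, 8 passed edgeR's filter on low counts, and 3 of these, the pro-survival genes BCL2L1 and MCL1 and the BH3-only gene BIK, were lower in edgeR's quasi-likelihood test, at a false discovery rate (FDR, Benjamini-Hochberg) of 0.01. None of the 8 was higher. An unadjusted p under 0.05 was reached by 4 of the 8 (50%), close to the 53.1% of all genes tested that reached it. Across all 10167 genes tested, 17.8% were called up and 17.4% down, so the knockdown moved a large share of the transcriptome in both directions. The median log2 fold change was -0.14 over the 8 members tested and -0.015 over all genes tested. DESeq2 called 2 members lower, BCL2L1 and MCL1, and 0 higher. In bulk RNA, fewer cells that express a gene and less of its mRNA per cell cannot be told apart.

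MCL1 (Entrez 4170, chromosome 1, 150533371 to 150552214 of hg19, reverse strand) was the most abundant member in every group. Its level was 435, 410, 367 and 388 CPM in the 4 NS-Veh libraries and 380, 384, 397 and 385 CPM in the NS-1nM DHT libraries. After SLIRP siRNA it was 321, 255, 307 and 340 CPM in vehicle and 251, 260, 303 and 274 CPM in DHT. Every SLIRP siRNA library lay below every NS library, the highest of the former being 340 CPM and the lowest of the latter 367 CPM. The log2 fold change was -0.43 (standard error, SE, 0.068, Benjamini-Hochberg FDR 4.68e-06 by edgeR), a level 0.743 times that of NS. Such a complete separation of 8 from 8 libraries was seen downward for 7.36% of all genes tested and upward for 7.75%. Exons of MCL1 overlap ADAMTSL4 on the opposite strand and ADAMTSL4-AS1 on the same strand, and whether counting used strand is not stated, so part of these counts may belong to those loci.

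BCL2L1 (Entrez 598, chromosome 20, 30252255 to 30311792, reverse strand) fell further. In the NS libraries it was 152, 132, 122 and 130 CPM in vehicle and 125, 143, 120 and 142 CPM in DHT. With SLIRP siRNA it was 78.2, 64.3, 73.8 and 98.0 CPM in vehicle and 78.8, 54.1, 107 and 96.7 CPM in DHT. The groups again did not overlap, although the SLIRP-1nM DHT libraries spread from 54.1 to 107 CPM. The log2 fold change was -0.67 (SE 0.10, Benjamini-Hochberg FDR 2.71e-06 by edgeR), a level 0.627 times that of NS. An exon of ABALON lies on the opposite strand of this locus. The size of the fall differed between replicate numbers, the log2 fold change of BCL2L1 being -0.97 (Benjamini-Hochberg FDR 9.74e-06 by edgeR) over replicates 1 and 2 and -0.42 (FDR 0.00672) over replicates 3 and 4 of every group, a division chosen after seeing the data and without a test of the difference. MCL1 was at -0.54 (FDR 2.30e-04) and -0.31 (FDR 0.00492) in the same fits by edgeR.

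BCL2 (Entrez 596, chromosome 18, 60790579 to 60987361), the founding pro-survival gene, was too low for the main test, with between 1 and 17 counts in a library. Its mean level was 7.11 ± 4.01 CPM (SD, n = 4) in NS-Veh, 4.60 ± 1.09 CPM in NS-1nM DHT, 10.1 ± 2.94 CPM in SLIRP-Veh and 7.79 ± 1.35 CPM in SLIRP-1nM DHT. The means were higher with SLIRP siRNA in both treatments, but the libraries overlapped. Without the filter on low counts the log2 fold change was 0.66 (SE 0.30, Benjamini-Hochberg FDR 0.0920 by edgeR over 16905 genes), short of the threshold, while MCL1 and BCL2L1 remained lower in that fit.

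**Figure D1:**
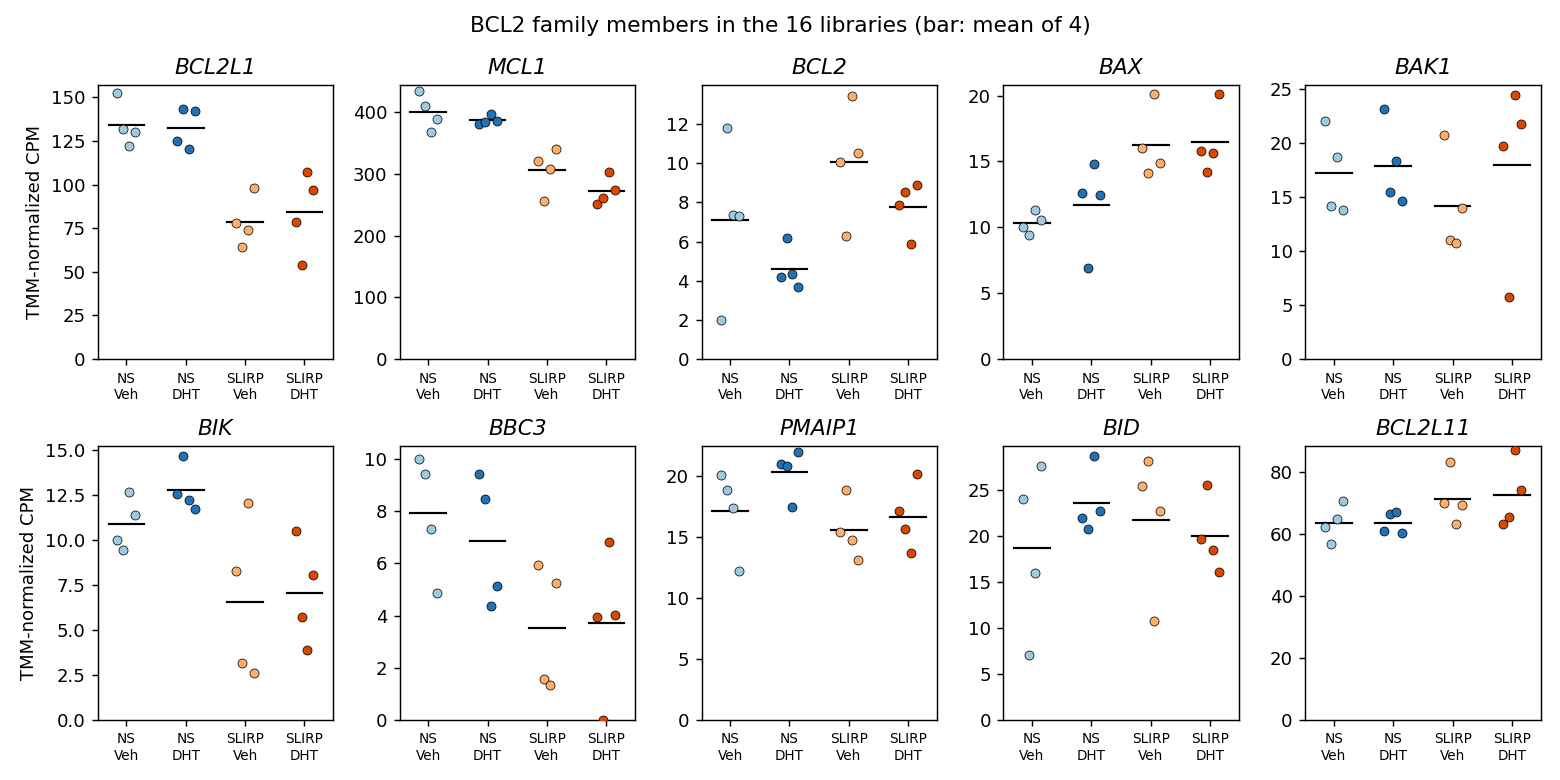
Level of each of the 10 BCL2 family genes in TMM-normalized CPM (vertical axis, linear and starting at 0, a separate scale per gene) in the 16 libraries, grouped by siRNA and treatment on the horizontal axis; each point is 1 library and each bar the mean of 4. For MCL1 and BCL2L1 all 8 SLIRP siRNA libraries sit below all 8 NS libraries, while the other 8 genes overlap.

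Of the effectors, BAX (Entrez 581, chromosome 19, 49458072 to 49465055, forward strand) had higher values with SLIRP siRNA but did not pass the test. It was 10.01, 9.44, 11.3 and 10.6 CPM in NS-Veh and 12.6, 6.94, 14.8 and 12.5 CPM in NS-1nM DHT, from between 4 and 17 counts. With SLIRP siRNA it was 15.99, 14.1, 20.1 and 14.9 CPM in vehicle and 15.8, 14.2, 15.6 and 20.2 CPM in DHT. NS-1nM DHT replicate 3, at 14.8 CPM, was the one control library that reached into the knockdown range. The log2 fold change was 0.56 (95% interval 0.17 to 0.94, Benjamini-Hochberg FDR 0.0150 by edgeR), and without that library it was 0.64 (FDR 0.00896), past the threshold. BAK1 (Entrez 578, chromosome 6, 33540324 to 33548070) differed by -0.03 on the log2 scale (95% interval -0.47 to 0.40, FDR 0.915) and lay between 5.69 and 24.4 CPM over the 16 libraries, so its interval leaves out a rise of the size measured for BAX. BAK1 shares sequence with the pseudogenes BAK1P1 and BAK1P2, and its exons overlap GGNBP1, which adds uncertainty to its counts.

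The BAX and BCL2L1 promoters are shown because these genes, an effector and the protein that restrains it, had fold changes of opposite sign with the largest values among the effectors and the pro-survival genes tested. The sequences run 5′ to 3′ on the strand of the gene, from 250 bases before to 50 bases after a RefSeq transcription start on GRCh38.p14. In BAX (chr19:48954625-48954924, forward strand) the capitals mark the E-box CACGTG, the word read by basic helix-loop-helix factors such as MYC. In BCL2L1 (chr20:31722819-31723118, reverse strand) they mark the single GC box, GGGCGG or its complement on the other strand, a word read by SP1.
BAX: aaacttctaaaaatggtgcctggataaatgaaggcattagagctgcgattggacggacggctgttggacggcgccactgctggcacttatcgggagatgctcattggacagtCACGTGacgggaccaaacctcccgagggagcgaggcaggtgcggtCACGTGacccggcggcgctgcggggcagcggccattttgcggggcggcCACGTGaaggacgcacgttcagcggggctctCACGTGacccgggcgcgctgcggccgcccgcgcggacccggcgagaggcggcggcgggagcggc
BCL2L1: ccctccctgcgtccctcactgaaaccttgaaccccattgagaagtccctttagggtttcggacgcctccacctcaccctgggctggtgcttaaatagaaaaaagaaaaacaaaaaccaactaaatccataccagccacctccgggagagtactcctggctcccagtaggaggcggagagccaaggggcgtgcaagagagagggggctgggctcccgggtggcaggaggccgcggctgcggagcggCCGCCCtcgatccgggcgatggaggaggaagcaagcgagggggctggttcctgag
The BAX promoter holds 4 E-boxes, a word present in 7.23% of the 34943 RefSeq promoters and 4 or more times in 0.0143% of them. Among the other members, the BBC3 window holds 1 E-box. The BID windows at chr22:17773934-17774233 and chr22:17773993-17774292, which overlap, hold 1 each. Neither BBC3 nor BID was called higher, and a relation of these words to the fold changes was not tested. It also holds 2 GC boxes, found in 44.9% of promoters, and 2 CCAAT boxes, found in 34.6%. A further BCL2L1 start in RefSeq, at chr20:31723914-31724213, has 0 GC boxes and 0 E-boxes in its window. RefSeq promoters were matched for 8 of the 10 members, MCL1 and BIK being the exceptions. None of the matched windows holds AGAACA, the core word of androgen response elements, which occurs in 14.8% of all promoters, or the cyclic AMP response element TGACGTCA, which occurs in 1.84%. All words were searched on both strands without mismatches, and the matches in the BAX window do not overlap one another.

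Among the BH3-only genes, BIK (Entrez 638, chromosome 22, 43506756 to 43525718, forward strand), whose product sits mainly on the endoplasmic reticulum, was lower after SLIRP siRNA. Its level was 10.01, 9.44, 12.7 and 11.4 CPM in NS-Veh and 12.6, 14.7, 12.2 and 11.7 CPM in NS-1nM DHT. Knockdown libraries had 8.29, 3.13, 12.1 and 2.63 CPM in vehicle and 10.5, 5.69, 3.90 and 8.06 CPM in DHT, from between 2 and 14 counts. The SLIRP siRNA libraries spread from below the smallest usable value up into the NS range. SLIRP-Veh replicate 2 had 2 counts, under the 3 taken as smallest usable, and SLIRP-Veh replicate 4 had 3. SLIRP-Veh replicate 3 and SLIRP-1nM DHT replicate 1 lay among the controls. The log2 fold change was -0.83 (95% interval -1.34 to -0.32, Benjamini-Hochberg FDR 0.00686 by edgeR), a level 0.562 times that of NS. This call was less stable than the other 2, as the FDR rose above 0.01 when any 1 of 9 libraries was left out. These were replicates 1, 2 and 3 of NS-1nM DHT (FDR 0.0121, 0.0195 and 0.0114), replicates 3 and 4 of NS-Veh (0.0146 and 0.0107), replicates 2 and 3 of SLIRP-1nM DHT (0.0115 and 0.0183) and replicates 2 and 4 of SLIRP-Veh (0.0133 and 0.0212). DESeq2 gave BIK an FDR of 0.0127 and a log2 fold change of -0.83, also short of the threshold. With the replicate number as a block it was at -0.81 (Benjamini-Hochberg FDR 0.0119 by edgeR), again short of it.

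The remaining BH3-only genes did not pass the test. BCL2L11 (Entrez 10018, chromosome 2, 111876955 to 111926021), which encodes BIM, an activator that binds every pro-survival member, was between 56.6 and 70.7 CPM with NS and between 63.1 and 86.9 CPM with SLIRP siRNA, a log2 fold change of 0.16 (95% interval -0.03 to 0.36, Benjamini-Hochberg FDR 0.151 by edgeR). PMAIP1 (Entrez 5366, chromosome 18, 57567228 to 57571537), which encodes NOXA, a partner selective for MCL1 and a p53 target, differed by -0.21 (95% interval -0.56 to 0.14, FDR 0.322). BID (Entrez 637, chromosome 22, 18216904 to 18257536), the substrate through which caspase 8 reaches mitochondria, differed by -0.06 (95% interval -0.46 to 0.33, FDR 0.813). For PMAIP1 and BID the intervals include a fall as large as that of MCL1, and for BCL2L11 the interval does not. BBC3 (Entrez 27113, chromosome 19, 47724079 to 47736023), which encodes PUMA, another p53 target, had between 0 and 11 counts in a library and was left out by the filter. Its mean was 7.91 ± 2.33 CPM (SD, n = 4) in NS-Veh, 6.85 ± 2.49 CPM in NS-1nM DHT, 3.52 ± 2.40 CPM in SLIRP-Veh and 3.70 ± 2.81 CPM in SLIRP-1nM DHT, and without the filter its log2 fold change was -0.75 (SE 0.36, Benjamini-Hochberg FDR 0.118 by edgeR). An exon of BBC3 overlaps MIR3191 and an exon of BCL2L11 overlaps MIR4435-2HG on the opposite strand.

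To see whether these differences depended on androgen, the siRNAs were also compared within each treatment, in an edgeR model of the 4 groups in which 9 of the 10 genes passed the filter. In vehicle MCL1 and BCL2L1 were lower, with log2 fold changes of -0.34 (SE 0.088, Benjamini-Hochberg FDR 0.00242 by edgeR) and -0.70 (FDR 2.00e-04), and 0 members were higher. Over the 10684 genes tested, 11.8% rose and 9.95% fell in vehicle. In each treatment 3 of 9 members (33.3%) had an unadjusted p under 0.05, a smaller share than the 41.1% of all genes in vehicle and 43.5% with DHT. With DHT the same 2 genes were lower, at -0.51 for MCL1 (SE 0.086, Benjamini-Hochberg FDR 1.22e-05 by edgeR) and -0.62 for BCL2L1 (FDR 3.87e-04), and 0 were higher, against 12.8% of all genes higher and 11.6% lower. Without NS-Veh replicate 1, MCL1 in vehicle was at -0.31 with an FDR of 0.0107. BIK was at -0.76 in vehicle (Benjamini-Hochberg FDR 0.133 by edgeR) and -0.87 in DHT (FDR 0.0589), and BAX at 0.62 (FDR 0.109) and 0.52 (FDR 0.141), neither gene passing within a treatment. BCL2, which passed the filter in this model, was at 0.53 in vehicle (Benjamini-Hochberg FDR 0.300 by edgeR) and 0.73 in DHT (FDR 0.171).

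DHT itself left the family without a called change. In NS cells 0 of 9 members tested passed the FDR (edgeR), where DHT raised 0.849% and lowered 0.463% of 10367 genes tested. At an unadjusted p under 0.05 there were 0 members and 14.3% of all genes. DESeq2 also called 0 members there. The 95% intervals of the log2 fold change with DHT in NS ran from -0.18 to 0.24 for BCL2L1, from -0.17 to 0.13 for MCL1 and from -0.30 to 0.25 for BCL2L11, which leaves room only for small changes in these 3 abundant genes. For BAX the interval ran from -0.52 to 0.77 and for BBC3 from -0.90 to 0.73, so changes as large as those seen with SLIRP siRNA lie within them.

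In SLIRP siRNA cells DHT also gave 0 calls among 9 members by edgeR and by DESeq2, against 0.636% of genes higher and 0.534% lower, and 1 of 9 (11.1%) had an unadjusted p under 0.05, beside 15.6% of all genes. This was MCL1, at -0.19 on the log2 scale (95% interval -0.37 to -0.01, Benjamini-Hochberg FDR 0.293 by edgeR). The difference in DHT response between the siRNAs was called for 0 of 9 members and for 0% of 10684 genes by edgeR, with 388 genes (3.63%) and 0 members at an unadjusted p under 0.05, and DESeq2 likewise called 0. For MCL1 that difference was -0.17 (95% interval -0.41 to 0.08) and for BCL2L1 it was 0.075 (95% interval -0.33 to 0.48).

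**Figure D2:**
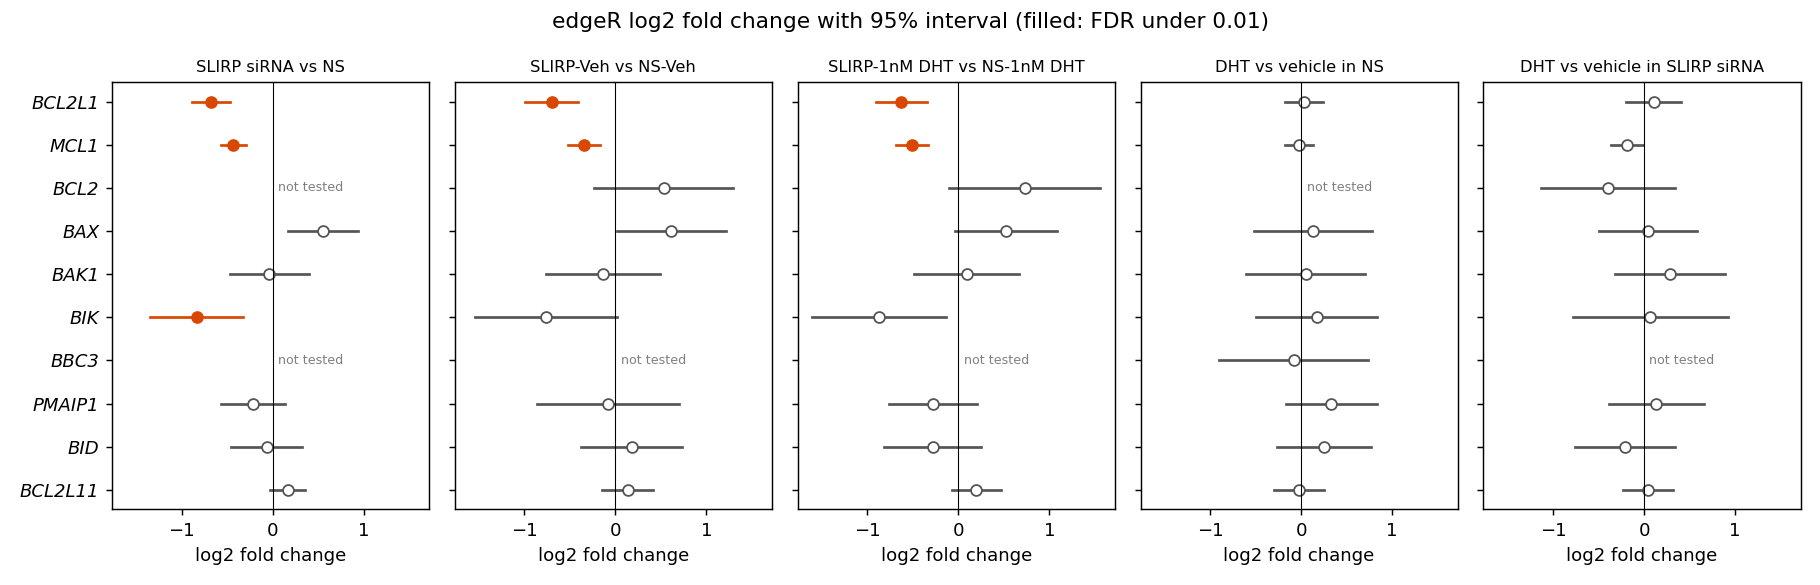
Log2 fold change (horizontal axis) with its 95% interval for each of the 10 genes (vertical axis) in 5 comparisons by edgeR; filled points have an FDR under 0.01 and genes left out by the low-count filter are marked as not tested. MCL1 and BCL2L1 are lower in all 3 comparisons of SLIRP siRNA with NS, BIK only in the one over 16 libraries (-0.83), and no gene is filled in either DHT comparison.

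Levels can be set side by side between genes only per length, so mean CPM was divided by the length in kilobases of the canonical transcript on hg19. In NS-Veh the level was 101 ± 7.33 CPM per kilobase for MCL1 and 52.1 ± 4.996 for BCL2L1 (SD, n = 4), followed by BAX at 13.0 ± 1.01, BCL2L11 at 12.5 ± 1.15 and BIK at 11.4 ± 1.52, whose libraries overlap each other in that order. BBC3 at 4.29 ± 1.26 and BCL2 at 1.03 ± 0.582 CPM per kilobase were the lowest. Of the 3 pro-survival members, MCL1 and BCL2L1 had the highest levels. Per kilobase, BCL2 had the lowest mean of the 10 in all 4 groups. Its libraries lay apart from those of BBC3 in both NS groups and overlapped them in both SLIRP siRNA groups. In CPM its mean was above that of BBC3 in SLIRP-Veh (10.1 against 3.52) and SLIRP-1nM DHT (7.79 against 3.70). The order thus depends on the canonical length, and the transcript forms present in these cells were not measured. In SLIRP-Veh the level was 77.4 ± 9.14 CPM per kilobase for MCL1, 30.5 ± 5.52 for BCL2L1 and 20.5 ± 3.38 for BAX (SD, n = 4). In NS cells the libraries of BCL2L1 stood apart from those of BAX on this scale, while in both SLIRP siRNA groups they overlapped. In SLIRP-1nM DHT, for example, BCL2L1 began at 21.0 and BAX ended at 25.3 CPM per kilobase.

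The balance between a pro-death and a pro-survival gene was read within each library as the log2 ratio of their counts, with 2 added to each. This ratio needs no library-size factor, but the added 2 weighs more in shallow libraries where counts are small. These pairs share the values given above and are a description without a test. BIK (log2 fold change -0.83) and BBC3 (-0.75 without the filter, not called) are in none of the pairs. The pairs therefore do not give the balance of the whole family. For BAX over BCL2L1 the ratio ran from -4.10 to -2.88 in the 8 NS libraries and from -2.64 to -1.74 in the 8 SLIRP siRNA libraries, a mean difference of 1.21 with no overlap. For BCL2L11 over MCL1 it ran from -2.76 to -2.43 with NS and from -2.27 to -1.58 with SLIRP siRNA, a mean difference of 0.61, again with no overlap. BCL2L1 and MCL1 alone already separated the siRNAs, and the share of all gene pairs that separate was not computed. The other pairs overlapped between siRNAs. PMAIP1 over MCL1 differed by 0.26 on average and BAX over BCL2 by -0.024, both BAX and BCL2 having higher means with SLIRP siRNA.

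**Figure D3:**
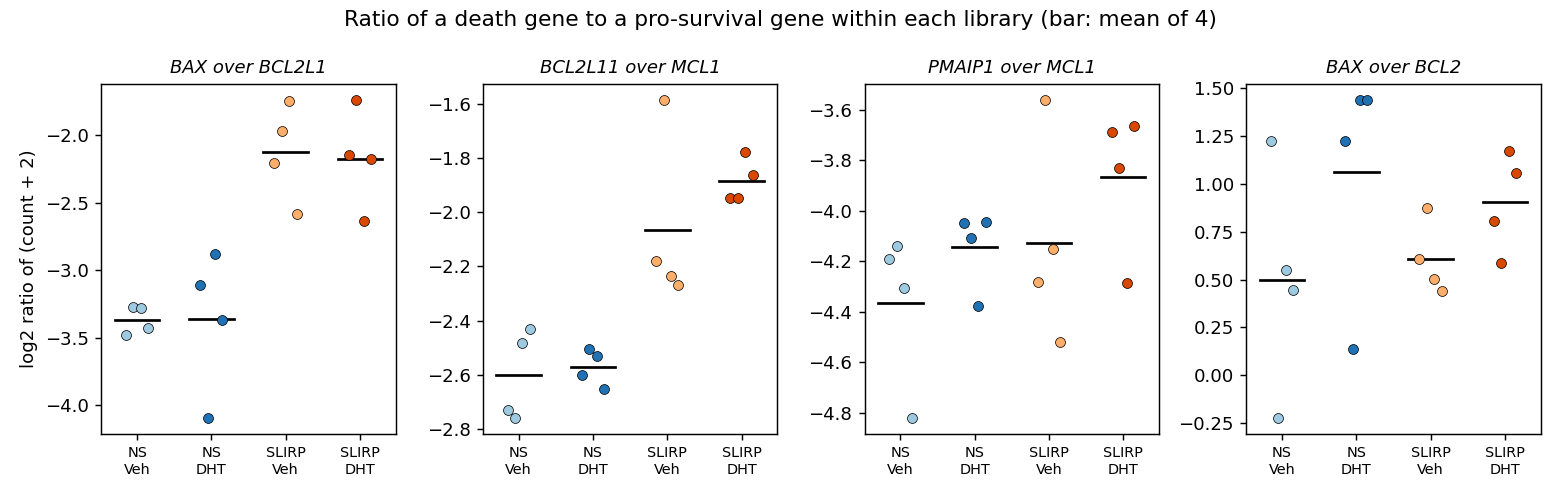
Log2 ratio within each library (vertical axis, 2 added to each count) of BAX over BCL2L1, BCL2L11 over MCL1, PMAIP1 over MCL1 and BAX over BCL2 in the 4 groups (horizontal axis); points are libraries and bars the mean of 4. The first 2 ratios are higher in every SLIRP siRNA library than in every NS library (mean differences 1.21 and 0.61), and the other 2 overlap.

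The rest of the apoptosis machinery was read from 5 lists of 55 genes, of which 46 were tested in SLIRP siRNA against NS and 7 were higher and 8 lower (edgeR, FDR 0.01), beside 17.8% and 17.4% of all genes. Among other BCL2 family genes, 2 of 9 tested were higher and 2 lower. BOK, an effector relative of BAX and BAK1, was lower by a log2 fold change of -0.90 (SE 0.14, Benjamini-Hochberg FDR 5.64e-06 by edgeR), from 41.7 ± 5.68 CPM with NS to 21.4 ± 4.82 CPM with SLIRP siRNA (SD, n = 8). BNIP3, a mitophagy receptor, was at -0.70, and BNIP2 was at 0.79. BNIP3L, a further mitophagy receptor, was the other gene called higher (0.41). BCL2L2, which encodes the pro-survival protein BCL-W, differed by 0.078 (95% interval -0.16 to 0.32, Benjamini-Hochberg FDR 0.620 by edgeR).

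Of 12 genes tested for the apoptosome, caspases and nucleases, 2 were higher and 0 lower. CASP8, the initiator caspase of the death receptor arm, rose by 0.95 (SE 0.13, Benjamini-Hochberg FDR 4.13e-07 by edgeR). All 8 SLIRP siRNA libraries lay above all 8 NS libraries for CASP8 (lowest 61.3 against highest 59.0 CPM), a separation seen upward for 7.75% of all genes tested. Other genes of these lists that separated included BNIP2, DIABLO and BIRC5 upward and BOK, BNIP3, BIRC2 and TMBIM6 downward. Among the inhibitors of apoptosis and their antagonists, 2 of 8 were higher and 2 lower. BIRC5, which encodes survivin and also serves mitosis, rose by 1.55, DIABLO, a mitochondrial antagonist of these inhibitors, rose by 0.86, and BIRC2 fell by 0.57 on the log2 scale. XIAP, the direct inhibitor of executioner caspases, was the other gene called lower (-0.39).

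In the death receptor arm 1 of 8 tested was higher and 1 lower, the fall being in TNFRSF1A (log2 fold change -0.44). The rise was in the death receptor gene FAS (1.00), which like BNIP3L and XIAP was named after its values were seen. CFLAR, an inhibitor of caspase 8, was at -0.43 with an edgeR Benjamini-Hochberg FDR of 0.0123. Of 9 partners and turnover factors of BCL2 proteins, 0 were higher and 3 lower, BCAP31 at -0.36, TMBIM6 at -0.30 and DYNLL1 at -0.27. In both DHT comparisons and in the difference between them, 0 genes of the 5 lists were called by edgeR. At an unadjusted p under 0.05 there were 3 of 46 (6.52%) for DHT in NS, 6 of 47 (12.8%) for DHT in SLIRP siRNA cells and 0 of 47 for the difference, beside 14.3%, 15.6% and 3.63% of all genes.

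**Figure D4:**
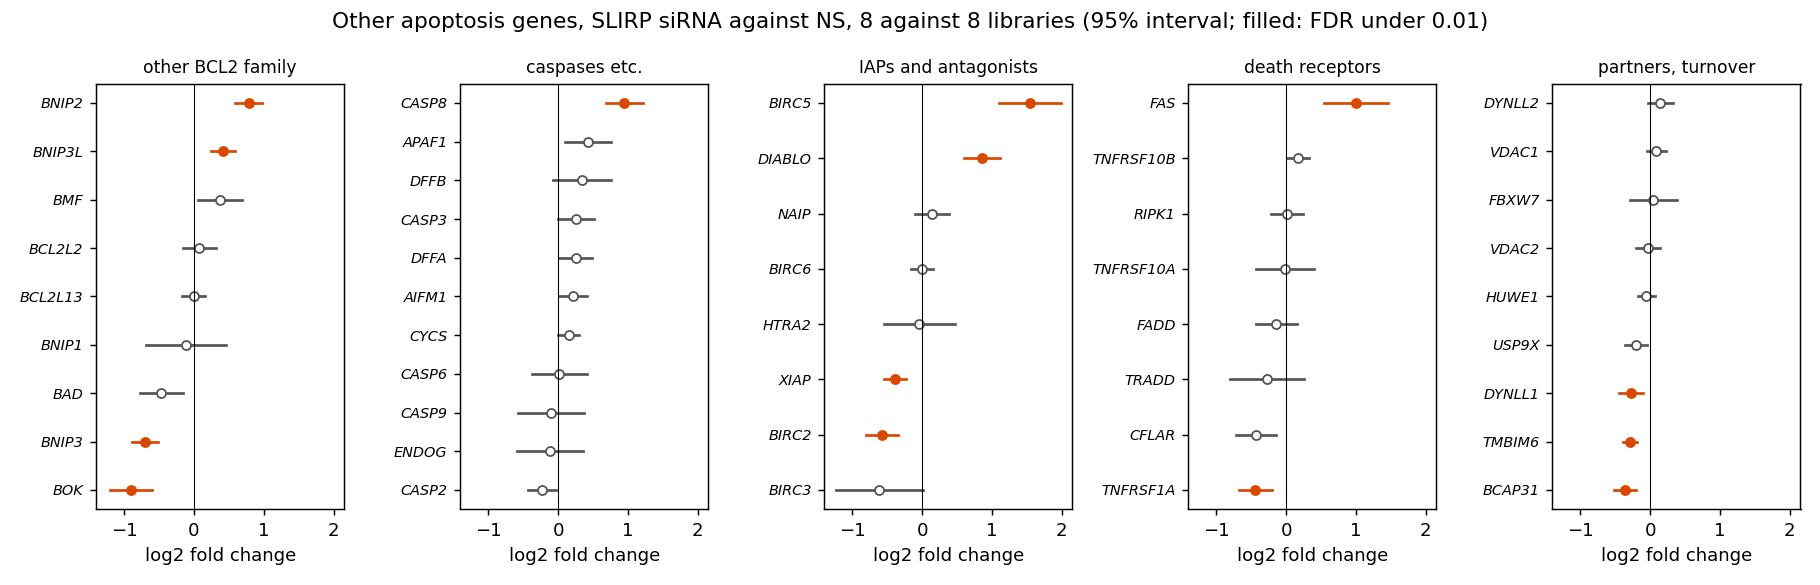
Log2 fold change (horizontal axis) with its 95% interval for tested genes of 5 other apoptosis lists (1 of the 46 is not shown), 8 SLIRP siRNA against 8 NS libraries by edgeR; filled points have an FDR under 0.01. The filled points fall on both sides of 0, with BIRC5 (1.55) the farthest to the right of those shown and BOK (-0.90) the farthest to the left.

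Genes whose profile over the 16 libraries lay closest to a member were found by the root mean square difference of their centred log2 CPM, taking genes whose mean count was 30 or more. For MCL1 these were GULP1 (0.0896), KDM6A (0.0969) and SERF2 (0.0974), beside a spread of MCL1 itself of 0.254 around its mean. For BCL2L1 they were FAM128B (0.160), EMB (0.162) and NOP10 (0.164), beside 0.429. BIK had no comparably close neighbour, its nearest being MGC70857 at 0.287 beside a spread of 0.563. BIK averaged 9.81 counts over the 16 libraries, under the 30 required of candidates, so its distances carry more counting noise. The neighbours share the libraries and the siRNA difference with the members, and no p-value belongs to these distances.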

How the data were processed

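RNA from LNCaP cells in 4 groups of 4 libraries was sequenced as single 50-base reads. The authors deposited a table of whole-number estimated counts with 20531 entries (29 lack a symbol). They also deposited normalized values for 13148 genes, a linear score proportional to those counts over each library's upper quartile. The submitters' processing notes name CASAVA, RSEM and hg19; versions are not given in the sources used here. RSEM shares reads of similar sequences by estimate.

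Library totals were 436353 to 1689708 counts; floors of 3 counts cover counting error only. Tests on the estimated counts used edgeR 4.0.16 in R 4.3.3 (TMM, filterByExpr, glmQLFit, glmQLFTest, Benjamini-Hochberg over all genes tested, FDR 0.01). SLIRP siRNA was compared with NS over 16 libraries and DHT with vehicle over the 8 NS libraries; the other 4 comparisons were contrasts of a 4-group model. Library pairs of a group differed by more than sampling noise (chi-square per degree of freedom 1.21 to 2.37), which may be technical. Replicates 1 with 2 and 3 with 4 were closer than the other pairs in NS-Veh (1.24 and 1.38 against 1.45 to 1.70) and NS-1nM DHT (1.22 and 1.30 against 1.53 to 1.91), while in SLIRP-Veh and SLIRP-1nM DHT the ranges overlapped. The labels do not tell which numbers came from which experiment. Alternatives were DESeq2 1.42.0, limma 3.58.1 on the normalized table (pseudocounts 1 and 0.1), RLE and upper-quartile factors, no filter, at least 10 counts in every library, an FDR of 0.05, treatment as a covariate, the 4-group model, only the groups compared, a replicate block and leaving out each library. After seeing the data, fits with replicates 1 and 2 against 3 and 4 as a term, and over each pair alone, were added.

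The members and lists were chosen with earlier results of these data known. Genes named are the 10 members, up to 3 genes per other list with the largest change at an FDR under 0.01 and a mean count of at least 30, with BIRC5, BCL2L2 and CFLAR, and 3 nearest profiles for the 3 members with the smallest p. SLIRP was read to check the siRNA labels and KLK3 to check the treatment labels. KLK3 and the other markers given with values by name were named after their values were seen. A few list genes enter the counts without being reported by name. Coordinates come from the GENCODE annotation on hg19 and promoters from RefSeq on GRCh38.p14. Plots used Python 3.11.15 and matplotlib 3.10.9.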

Additional observations from a re-analysis of the deposited data

How the results depend on the processing

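MCL1 and BCL2L1 stayed lower at an FDR of 0.01 with SLIRP siRNA over 16 libraries in 29 of 29 alternatives, with log2 fold changes from -0.54 to -0.31 and from -0.97 to -0.42, and no result changed direction past the threshold. BIK kept its call in 12 of 27 alternatives (log2 fold change -1.01 to -0.69, FDR 0.00311 to 0.0574). It lost it with DESeq2, without the low-count filter (FDR 0.0180), with limma (0.0169 and 0.0211), with the replicate block (0.0119), over replicates 3 and 4 alone (0.0574) and without any of the 9 libraries named above. With at least 10 counts in every library only MCL1, BCL2L1 and BCL2L11 could be tested. The number of members called higher was 1 in place of 0 at an FDR of 0.05, the gene being BAX, and 0 to 1 when single libraries were left out. The number called lower in vehicle was 1 to 2 when single libraries were left out. With the replicate number as a block, 2 members were lower with SLIRP siRNA in place of 3, 0 were higher, and no other call among the members changed. The block moved the count over all genes from 136 to 270 for DHT in NS and from 125 to 248 for DHT in SLIRP siRNA cells. Same-numbered libraries deviated together with correlations from 0.00012 to 0.201 over 6965 genes, all positive. Per pair of groups, 3 to 5 of 8 libraries correlated best with their own number among 4 candidates. The labels do not give the numbers as pairs, so the block stayed an alternative, and pairing was not tested. With replicates 1 and 2 against 3 and 4 as a term, added after seeing the data, the same members were called in each comparison, and over all genes DHT gave 293 calls in NS and 201 in SLIRP siRNA cells. Over replicates 1 and 2 alone or 3 and 4 alone, also added, 2057 and 2128 genes were called with fewer libraries, MCL1 and BCL2L1 being the members among them; BIK was not tested in replicates 1 and 2. Over all genes, DHT in NS gave 236 calls without the filter, 91 by DESeq2, 27 and 17 by limma, with 0 members among them in each case. The depth limits BCL2, BBC3, BIK and BAX, each under 30 counts in every library, far more than MCL1.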
